A study of Mus musculus with 16 samples.

Results

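Pancreatic identity is set by a small group of transcription factors, and the loci of 10 of them were examined for chromatin accessibility in mouse pancreatic cancer cells: Pdx1, Ptf1a, Sox9, Nr5a2, Gata4, Gata6, Bhlha15 (which encodes MIST1), Rbpjl, Nkx6-1 and Prox1. A member was a peak of open chromatin whose midpoint had the start site of one of these genes as its nearest protein-coding start site, within 100 kb. The rule found 118 of 136630 nuclear peaks: 27 at Gata6, 26 at Gata4, 21 at Sox9, 17 at Nr5a2, 9 at Pdx1, 7 at Bhlha15, 4 at Rbpjl, 3 each at Ptf1a and Prox1 and 1 at Nkx6-1. Assignment by distance does not show that a peak acts on that gene.

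Accessibility was measured by ATAC-seq, in which a transposase cuts open chromatin, in bulk mKate2-positive tumour cells sorted by flow cytometry. The KC-shSmad4 cells carried Ptf1a-Cre, a Rosa26 LSL-rtTA3-IRES-mKate2 allele and at Col1a1 a short hairpin RNA that silences Smad4 under doxycycline. Cre and mKate2 therefore mark cells of the pancreatic lineage, and one Ptf1a allele, itself a member locus, holds the Cre. The cell lines came from tumours of male mice of mixed C57BL/6J and 129 background and most had lost Cdkn2a and Cdkn2b. Which line and which of the Smad4 hairpins gave each sample is not stated. They were placed in female Foxn1nu nude mice 6 to 8 weeks old, by injection into the pancreas (Panc), through the spleen to reach the liver (Liv) or through the tail vein to reach the lungs (Lung). All hosts received doxycycline, which keeps Smad4 off (OFF). Smad4 was restored (ON) by withdrawing the drug for 14 days, starting after 4 weeks of growth for pancreas, 5 for liver and 6 for lung tumours, so that organ, route and time of growth cannot be told apart. The 16 samples, each from its own mouse, comprised 3 for each pancreas and lung group (Panc_OFF, Panc_ON, Lung_OFF, Lung_ON) and 2 for each liver group (Liv_OFF, Liv_ON).

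As background, PDX1 acts in the earliest pancreatic bud and later in beta cells. PTF1A pairs with RBPJL to drive the digestive enzyme genes of acinar cells, and NR5A2 and MIST1 maintain the acinar state. SOX9 marks pancreatic progenitors and ducts, GATA4 and GATA6 pattern the foregut and pancreas, NKX6-1 is a progenitor and beta cell factor, and PROX1 takes part in the development of the pancreas, the liver and lymphatic vessels. Pancreatic tumours of this type are usually taken to arise from acinar or ductal cells that lose parts of these programmes.

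The following sequences belong to peaks that differed between the liver and another organ, chosen after their values were seen to show the letters they carry. Not all of them are peaks of large difference. Against Lung_OFF, Nr5a2 peak 5 (−2.80) and Sox9 peak 18 (−2.77) were close to the lowest member, Sox9 peak 9 (−2.83). Nr5a2 peak 12 differed by 0.96. Each is the plus strand of GRCm38.p6 as held by RefSeq. The peak sequences are the central 200 bp of the merged peak, since no summits were given, and the Bhlha15 sequence is the 250 bases before its start site. Capitals mark exact matches on either strand to the letters named beside each set, and other matches stay in lower case.

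The first set holds peaks less accessible in the liver than in the lungs, shown because they share the letters TGACTCA, the core bound by AP-1 (capitals). KLF letters (CCNCCC) also occur there in lower case, 3 times in Nr5a2 peak 5 and 1 time each in Sox9 peaks 11 and 18, as do 1 GATA match in Sox9 peak 18 and 1 RBPJ match (TGGGAA) in Rbpjl peak 1. Sox9 peaks 11 and 18 are intergenic and lie 24.4 kb and 68.4 kb downstream of the Sox9 start site. Nr5a2 peak 5 lies in an Nr5a2 intron, 49.5 kb from the nearest Nr5a2 start site, and Rbpjl peak 1 lies 20.0 kb upstream of Rbpjl in an intron of Slpi.
Sox9 peak 11, chr11:112806568-112806767: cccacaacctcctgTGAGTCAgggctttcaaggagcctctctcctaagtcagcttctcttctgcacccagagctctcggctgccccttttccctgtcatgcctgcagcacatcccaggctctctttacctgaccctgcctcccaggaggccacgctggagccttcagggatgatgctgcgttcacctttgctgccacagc
Sox9 peak 18, chr11:112850564-112850763: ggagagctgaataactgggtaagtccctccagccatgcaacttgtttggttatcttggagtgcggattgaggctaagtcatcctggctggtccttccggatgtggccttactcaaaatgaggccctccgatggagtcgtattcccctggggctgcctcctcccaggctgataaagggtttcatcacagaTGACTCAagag
Nr5a2 peak 5, chr1:136899913-136900112: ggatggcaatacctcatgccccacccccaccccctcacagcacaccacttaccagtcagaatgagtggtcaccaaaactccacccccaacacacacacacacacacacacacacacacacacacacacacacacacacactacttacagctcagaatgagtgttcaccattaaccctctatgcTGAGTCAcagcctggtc
Rbpjl peak 1, chr2:164383084-164383283: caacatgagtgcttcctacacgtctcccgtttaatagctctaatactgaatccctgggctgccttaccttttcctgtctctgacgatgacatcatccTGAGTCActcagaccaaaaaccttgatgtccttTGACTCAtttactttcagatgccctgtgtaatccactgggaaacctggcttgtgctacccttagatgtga

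The second set was more accessible in the liver and shows that such peaks carry varied letters. In Pdx1 peak 1 (intergenic, 34.3 kb upstream) the capitals are AP-1 and RUNX (TGTGGT) matches, in Gata4 peak 14 (intronic, 16 kb from the nearest Gata4 start site) an NR5A match (AAGGTCA) and overlapping KLF matches (CCNCCC), in Nr5a2 peak 12 at the Nr5a2 start site GATA matches (AGATAA) and an HNF1 match (the run of 10 capitals), and in the Bhlha15 promoter overlapping KLF matches.
Pdx1 peak 1, chr5:147235520-147235719: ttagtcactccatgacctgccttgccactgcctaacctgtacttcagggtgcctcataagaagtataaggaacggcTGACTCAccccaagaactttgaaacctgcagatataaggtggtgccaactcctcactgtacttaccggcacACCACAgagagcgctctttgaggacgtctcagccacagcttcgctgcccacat
Gata4 peak 14, chr14:63261166-63261365: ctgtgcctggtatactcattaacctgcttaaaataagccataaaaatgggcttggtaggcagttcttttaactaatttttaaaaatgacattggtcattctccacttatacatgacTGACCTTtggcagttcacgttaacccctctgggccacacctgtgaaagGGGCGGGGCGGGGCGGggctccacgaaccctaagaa
Nr5a2 peak 12, chr1:136960583-136960782: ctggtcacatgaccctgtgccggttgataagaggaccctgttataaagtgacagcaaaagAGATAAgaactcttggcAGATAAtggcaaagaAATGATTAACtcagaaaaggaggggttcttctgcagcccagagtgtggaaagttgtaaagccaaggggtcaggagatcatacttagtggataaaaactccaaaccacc
Bhlha15 promoter, chr5:144190036-144190285: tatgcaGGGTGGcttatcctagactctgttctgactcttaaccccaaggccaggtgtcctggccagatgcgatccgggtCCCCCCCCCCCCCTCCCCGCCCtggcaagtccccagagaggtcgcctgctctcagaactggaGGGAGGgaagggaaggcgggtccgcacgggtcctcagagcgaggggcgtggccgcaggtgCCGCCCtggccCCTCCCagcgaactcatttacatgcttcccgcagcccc
The Bhlha15 promoter is 66.8% G and C and holds 14 KLF matches, many of them overlapping in 1 run. Of all 32851 promoter sequences in the RefSeq table, 64.5% held at least 1 such match in the same 250 bases. A match is a description of letters and not evidence of binding.

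Of the 118 member peaks, 72 were intergenic, 38 intronic, 7 lay within 1000 bp of a start site and 1 was exonic. A peak held a start site of 8 of the 10 genes (9 peaks, with 2 at Gata4). Ptf1a and Nkx6-1 had none. Values are normalised counts, the reads of a peak divided by the size factor of the sample. Between 22.5 M and 37.5 M reads fell in peaks per sample, a member peak held a median of 49.0 reads averaged over samples, and the lowest held 5.38. Replicates differed beyond counting noise in every group (chi-square per degree of freedom 3.68 to 20.3), most for Panc_ON replicate 3 and for Lung_OFF replicate 1, which stood apart from their own groups. A difference was called where the log2 fold change reached 0.58 in either direction and the Benjamini-Hochberg adjusted p was 0.1 or less, in limma on log2(normalised count + 1) over all peaks. This scale understates the change of low peaks. In bulk cells, fewer cells with an open site and less opening per cell cannot be told apart, and no RNA was measured here, so the knockdown of Smad4 could not be checked.

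Start sites of Pdx1, Sox9, Gata4 and Gata6 lay in broad peaks of several kilobases that were open in every sample, and those of the acinar factors Bhlha15 and Rbpjl, of Nr5a2 and of Prox1 in much narrower peaks. The Pdx1 start-site peak (Pdx1 peak 6, chr5:147266643-147273391) held 2957, 2610 and 2768 in Panc_OFF, 3450 and 3057 in Liv_OFF and 2739, 2878 and 2659 in Lung_OFF. The peak over Sox9 (Sox9 peak 8, chr11:112781076-112789047) held 3176, 3141 and 3150 in Panc_OFF, 3063 and 2838 in Liv_OFF and 3010, 3061 and 3087 in Lung_OFF. Neither was called between any pair of organs with Smad4 off. Pdx1 peak 6 was 0.24 (SE 0.09) higher in Liv_OFF than in Lung_OFF on the log2 scale, short of the fold limit, and Sox9 peak 8 was 0.05 lower (−0.05, SE 0.10).

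The broad Gata4 start-site peak (Gata4 peak 12) held 3486, 2894 and 2894 in Panc_OFF, 4898 and 4135 in Liv_OFF and 2696, 3897 and 3432 in Lung_OFF, and that of Gata6 (Gata6 peak 14) held 1898, 1925 and 1672, then 2167 and 1978, then 1557, 2006 and 1925 in the same order. Liver samples were the highest at Gata4 peak 12, by 0.55 over Panc_OFF, which was also short of the limit. At Gata6 peak 14 they were above Panc_OFF (0.18, not called) and overlapped Lung_OFF. Counts of peaks of such different width are not compared between genes.

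**Figure D1:**
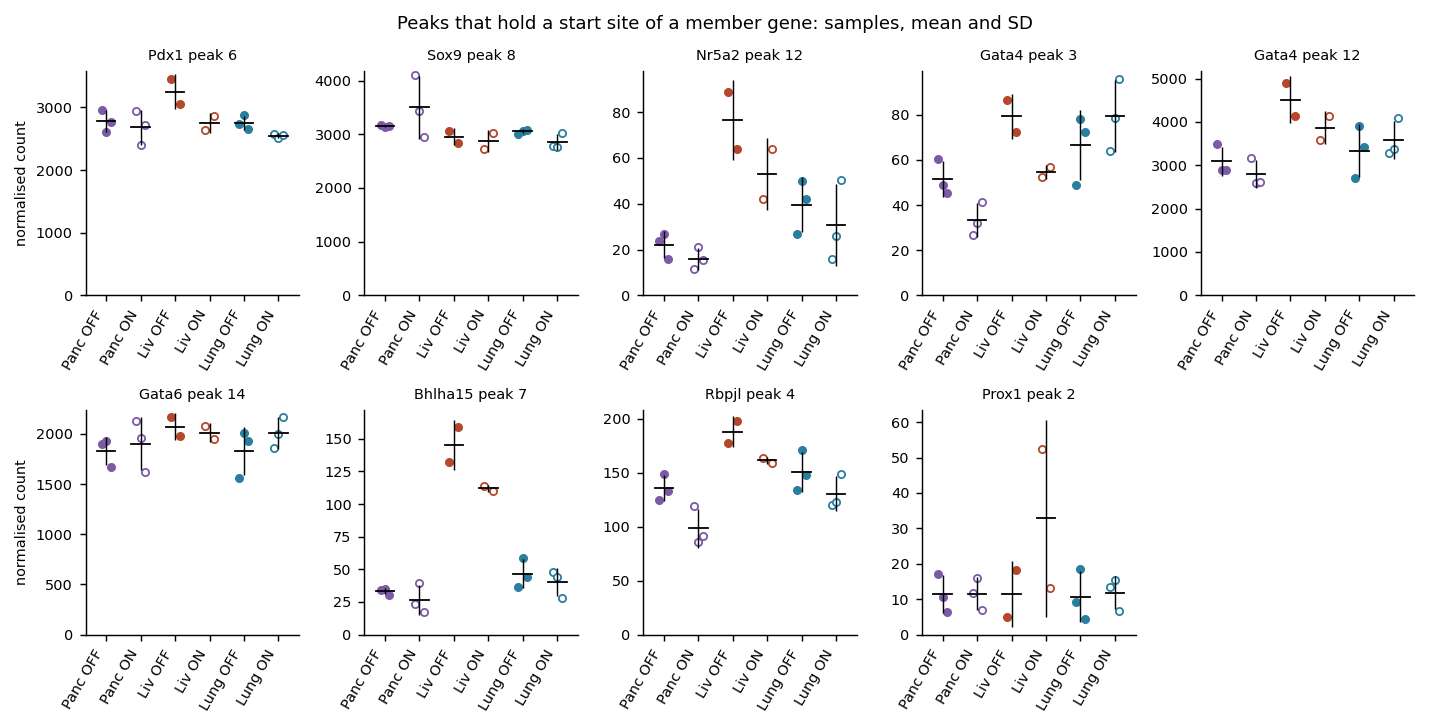
Normalised count (linear axis) of the 9 peaks that hold a start site of a member gene, by organ and Smad4 state. Points are samples, lines are group means and bars are SD. The Sox9 peak stays between 2729 and 4112 in every sample, whereas the Bhlha15 peak lies between 110 and 159 in the liver and between 17.6 and 58.7 elsewhere.

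Of the 9 start-site peaks, those of Bhlha15, Nr5a2 and the smaller one of Gata4 were called between the liver and the pancreas with Smad4 off. Bhlha15 encodes a factor that supports the secretory apparatus of acinar cells, and its promoter peak (Bhlha15 peak 7, chr5:144189867-144190482) held 34.2, 34.8 and 30.6 in Panc_OFF, 132 and 159 in Liv_OFF and 36.8, 58.7 and 43.9 in Lung_OFF, and 114 and 110 in Liv_ON. All liver samples were above every pancreas and lung sample. The difference was 1.64 (SE 0.35, adjusted p = 0.00151) against Lung_OFF and 2.10 (SE 0.35, adjusted p = 0.00017) against Panc_OFF.

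The Nr5a2 start-site peak (Nr5a2 peak 12) held 23.9, 26.8 and 15.7 in Panc_OFF, 88.9 and 64.1 in Liv_OFF and 26.7, 50 and 42.2 in Lung_OFF. It was higher in Liv_OFF than in Panc_OFF (1.76, SE 0.46, adjusted p = 0.00402) with no overlap. Against Lung_OFF the groups did not overlap either, but the call (0.96, SE 0.46, adjusted p = 0.0934) was lost under TMM or quantile normalisation and without either Liv_OFF sample, Lung_OFF replicate 1 or 3, Panc_OFF replicate 1 or 2 or Lung_ON replicate 2. The smaller Gata4 start-site peak (Gata4 peak 3) held 60.6, 49.1 and 45.4 in Panc_OFF and 86.4 and 72.4 in Liv_OFF (0.61, SE 0.30, adjusted p = 0.0906), a call that many alternatives ended. The Rbpjl start-site peak (Rbpjl peak 4) held 125, 149 and 133 in Panc_OFF, 178 and 198 in Liv_OFF and 134, 171 and 148 in Lung_OFF and was not called. Prox1 had a faint start-site peak (Prox1 peak 2), between 4.31 and 52.4 in all samples, with no call between organs with Smad4 off.

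Liver and lung metastases with Smad4 off, the pair that the study set against each other, differed at distal peaks of most members. At the ductal and progenitor gene Sox9, 10 of 21 peaks were lower in Liv_OFF and 3 higher. At Gata4 the balance was opposite, with 11 of 26 higher and 1 lower. At Gata6, 6 of 27 were higher and 7 lower, and at Nr5a2 5 of 17 were higher and 6 lower. Pdx1 and Bhlha15 each had 4 higher and 1 lower, of 9 and 7 peaks. Rbpjl had 2 of 4 lower, Prox1 and Ptf1a 1 of 3 lower each, and the only Nkx6-1 peak was higher.

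In all, 64 of the 118 peaks (54.2%) were called, 34 higher and 30 lower, beside 49.7% of all peaks (22.9% higher and 26.8% lower). The median log2 difference was 0.13 over the members and 0.00 over all peaks. Of the 9 start-site peaks 2 were called (22.2%, beside 25.7% of all such peaks) and of the other 109 peaks 62 (56.9%, beside 52.2%), so that in both classes the members were near the background. For Liv_OFF against Panc_OFF the counts were 3 of 9 (33.3%, beside 30.2%) and 63 of 109 (57.8%, beside 61.5%). At 75 members the samples of Liv_OFF and Lung_OFF did not overlap, beside 65.9% of all peaks. Without Liv_OFF replicate 1, 44 were called, and 47 without Lung_OFF replicate 1. Under quantile normalisation Sox9 kept a majority of lower calls (8 lower, 3 higher) and Gata4 of higher ones (10 higher, none lower), and both balances also held with TMM factors and with a correction for GC content. That correction moved the median of all peaks by −0.11.

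**Figure D2:**
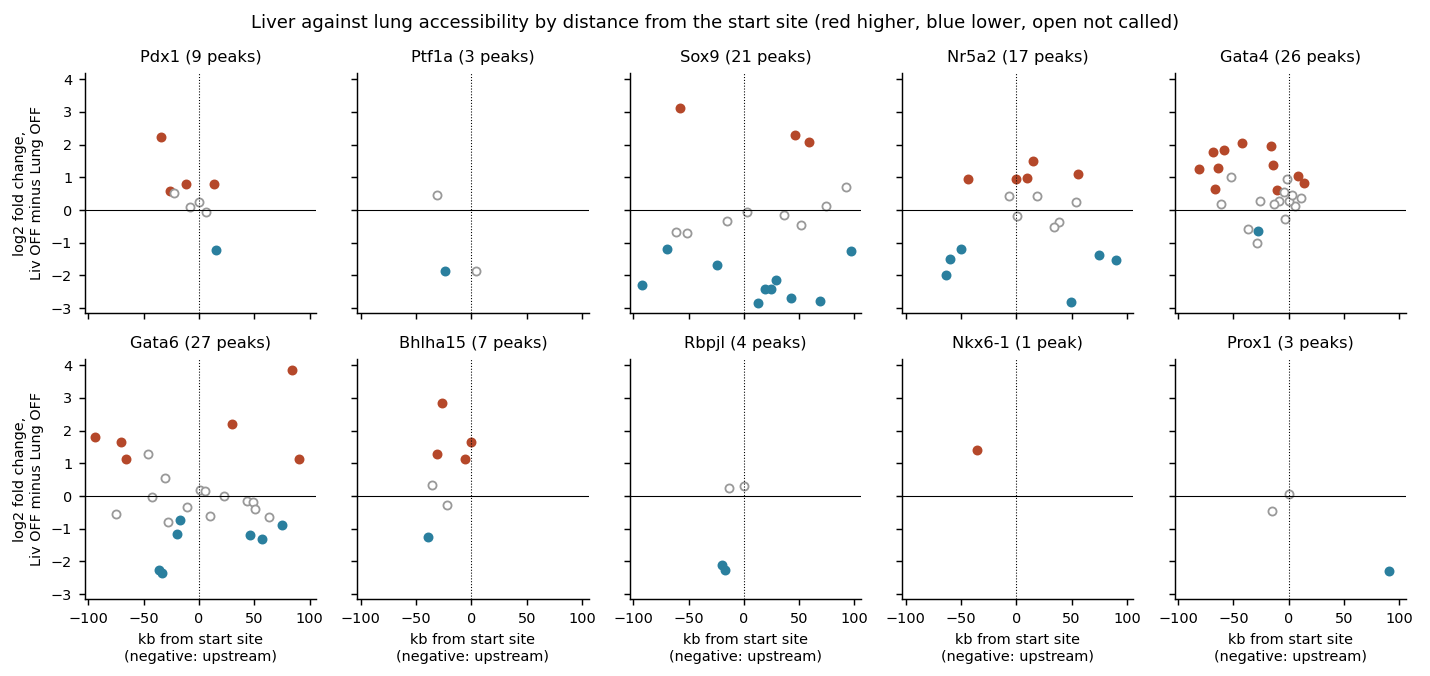
Log2 difference of Liv_OFF from Lung_OFF (vertical) for each member peak against its distance in kb from the start site of its gene (horizontal), with 1 panel for each gene. Red marks peaks called higher in the liver, blue lower, and open circles were not called. Sox9 holds 10 blue and 3 red points, Gata4 11 red and 1 blue, and Gata6 both colours in near equal number.

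At Sox9, the intergenic peak of smallest p was peak 14 (42.5 kb downstream, chr11:112824090-112825287). It held 23.4 and 25.1 in Liv_OFF, 205, 89.1 and 232 in Lung_OFF and 123, 100 and 154 in Panc_OFF. Both liver samples were below all others, at −2.69 against Lung_OFF (SE 0.35, adjusted p = 5.79e-05) and −2.30 against Panc_OFF (SE 0.35, adjusted p = 8.82e-05). Peak 15 (46.7 kb downstream, chr11:112828498-112829288), only a few kilobases further, showed the reverse order. It held 252 and 223 in Liv_OFF, 23, 92.4 and 51.7 in Lung_OFF and 39.3, 17 and 17.6 in Panc_OFF, and was 2.28 higher than in Lung_OFF (SE 0.50, adjusted p = 0.00173) and 3.32 higher than in Panc_OFF (SE 0.50, adjusted p = 7.4e-05).

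The AP-1-bearing Sox9 peaks printed above followed peak 14 and were singled out after their values were seen. Peak 18 held 50.6 and 34.8 in Liv_OFF, 409, 162 and 379 in Lung_OFF and 345, 406 and 543 in Panc_OFF. Peak 11 held 21 and 23.7 in Liv_OFF, 234, 59.8 and 133 in Lung_OFF and 71.7, 68.8 and 60.2 in Panc_OFF. At both, liver samples were the lowest without overlap, by −2.77 (SE 0.55, adjusted p = 0.000908) and −2.41 (SE 0.43, adjusted p = 0.000461) against Lung_OFF. The sum over all 21 Sox9 peaks, most of it from the peak over the gene, ranged from 3734 to 3916 in Liv_OFF and from 4082 to 4767 in Lung_OFF, and was not called (−0.24).

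At Gata4, peak 14 (chr14:63260721-63261811) held 360 and 308 in Liv_OFF, 56.1, 151 and 71.5 in Lung_OFF and 39.3, 53.6 and 45.4 in Panc_OFF. The liver samples were at least 2 times as high as any other Smad4 OFF sample. The differences were 1.96 (SE 0.36, adjusted p = 0.0005) against Lung_OFF and 2.84 (SE 0.36, adjusted p = 2.23e-05) against Panc_OFF. Peak 19, 42.5 kb upstream and chosen after its values were seen, held 359 and 431 in Liv_OFF, 54.3, 184 and 81.9 in Lung_OFF and 41.8, 56.3 and 43.5 in Panc_OFF. Lung_OFF replicate 2 was the highest lung sample at both peaks.

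Summed over its 26 peaks, Gata4 held 12020 and 10331 in Liv_OFF, 5398, 8752 and 7405 in Lung_OFF and 7012, 6745 and 6624 in Panc_OFF. The liver sums were the highest, by 0.66 (SE 0.15, adjusted p = 0.00262) and 0.71 (SE 0.15, adjusted p = 0.00134), beside a median over all loci of 0.30 in both comparisons. Quantile normalisation took that median to 0.08 and 0.06 and the Gata4 value to 0.35 in both, below the fold limit, and the call against Lung_OFF was also lost without Liv_OFF replicate 1 (0.55) or Lung_OFF replicate 1 (0.47). Other peaks within 2 Mb on either side had median differences of −0.22 and −0.43 by single peak, where all peaks had 0.00 and −0.05. The like medians of the 26 Gata4 peaks were 0.57 and 0.70.

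Gata6, the partner of Gata4 in pancreatic development, had peaks of both kinds. Gata6 peak 7, intergenic and 36.4 kb upstream, held 42 and 51.5 in Liv_OFF, 278, 188 and 222 in Lung_OFF and 156, 135 and 127 in Panc_OFF. It was lower in the liver than in the lungs without overlap (−2.26, SE 0.30, adjusted p = 6.37e-05). Gata6 peak 26, 83.7 kb downstream, held 21 and 43.2 in Liv_OFF and at most 2.58 in the other Smad4 OFF samples, a level of 3 reads or fewer, so that the size of its fold depended on the pseudocount (4.04 against Panc_OFF, 1.87 with a pseudocount of 10). With quantile normalisation the balance of Gata6 calls against Panc_OFF turned, from 6 higher and 9 lower to 7 higher and 4 lower.

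**Figure D3:**
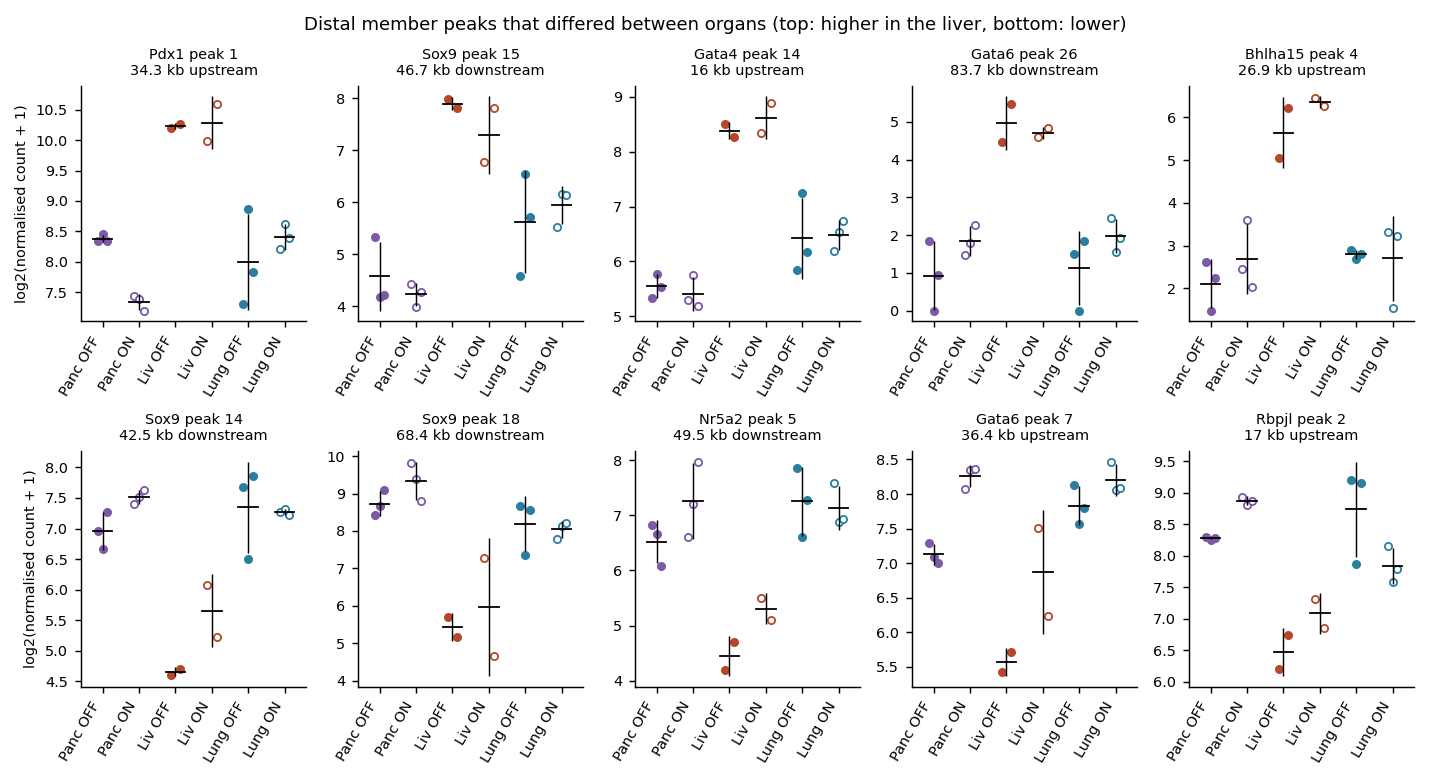
Log2(normalised count + 1) in every sample for 10 distal peaks. Points are samples, lines are group means and bars are SD. The upper panels (Pdx1 1, Sox9 15, Gata4 14, Gata6 26, Bhlha15 4) are highest in both liver groups and the lower panels (Sox9 14, Sox9 18, Nr5a2 5, Gata6 7, Rbpjl 2) lowest in Liv_OFF.

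Pdx1 differed between organs away from its start site. Pdx1 peak 1 (chr5:147234585-147236656) held 1176 and 1230 in Liv_OFF, 158, 465 and 227 in Lung_OFF and 325, 350 and 324 in Panc_OFF. The liver samples were above all others, by 2.23 (SE 0.31, adjusted p = 8.09e-05) over Lung_OFF and 1.85 (SE 0.31, adjusted p = 0.00016) over Panc_OFF, and every alternative tried kept both calls. The locus sum was 0.34 and 0.45 higher and was not called.

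Of the other acinar loci, Rbpjl had 2 of 4 peaks lower in the liver and Ptf1a had little signal in any organ. The Rbpjl start-site peak went the other way, 0.32 higher in Liv_OFF than in Lung_OFF, and was not called. Rbpjl peak 2 (chr2:164385682-164386631, in an intron of Slpi, 17.0 kb upstream) held 72.8 and 106 in Liv_OFF, 585, 233 and 568 in Lung_OFF and 312, 305 and 310 in Panc_OFF. It was lowest in the liver, by −2.27 (SE 0.32, adjusted p = 8.87e-05) against Lung_OFF and −1.80 (SE 0.32, adjusted p = 0.000247) against Panc_OFF. Rbpjl peak 1 held 9.87 and 19.5 in Liv_OFF and 125, 42.4 and 48.2 in Lung_OFF (−2.11, SE 0.56, adjusted p = 0.00618). Both peaks lie within Slpi by annotation. The Rbpjl sum was 353 and 415 in Liv_OFF, 921, 514 and 850 in Lung_OFF and 545, 593 and 552 in Panc_OFF, lower than in Lung_OFF by −0.95 (SE 0.21, adjusted p = 0.00172) and not called against Panc_OFF (−0.56).

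Bhlha15 peaks 1 to 6 likewise lie in introns of Lmtk2. Peak 6 (6.03 kb upstream) held 359 and 255 in Liv_OFF, 87.4, 183 and 159 in Lung_OFF and 121, 177 and 164 in Panc_OFF. Peak 4 (26.9 kb upstream), chosen after its values were seen, held 32.1 and 73.8 in Liv_OFF and between 1.79 and 6.44 in the other Smad4 OFF samples. The Bhlha15 sum was 1049 and 1076 in Liv_OFF, 457, 716 and 662 in Lung_OFF and 533, 583 and 586 in Panc_OFF, higher by 0.82 (SE 0.17, adjusted p = 0.00133) and 0.90 (SE 0.17, adjusted p = 0.00054). Across loci, Liv_OFF against Lung_OFF thus gave 3 higher (Gata4, Bhlha15, Nkx6-1) and 2 lower (Rbpjl, Prox1) of 10, beside 32.2% of all 17815 loci called (20.4% higher and 11.8% lower). The 5 calls became 2 higher and 3 lower under quantile normalisation.

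Ptf1a, the acinar master regulator, had only 3 peaks, none at its start site. The nearest (Ptf1a peak 3, 4.05 kb downstream) held 3.7 and 5.57 in Liv_OFF, 48.8, 25 and 5.17 in Lung_OFF and 5.98, 0.893 and 1.85 in Panc_OFF, with overlapping groups and the lowest sample at 1 read. Ptf1a peak 2 (24.1 kb upstream) held 3.7 and 6.97 in Liv_OFF and 43.3, 9.78 and 21.5 in Lung_OFF. It was called lower in the liver (−1.85, SE 0.75, adjusted p = 0.0514), a call lost under quantile normalisation, with the replicate block and GC correction, and without Liv_OFF replicate 1 or Lung_OFF replicate 1.

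Nr5a2 peak 5 (chr1:136899672-136900354) held 17.3 and 25.1 in Liv_OFF, 232, 96.7 and 154 in Lung_OFF and 113, 100 and 66.7 in Panc_OFF. The liver samples were the lowest, opposite to the start site of the same gene, by −2.80 (SE 0.41, adjusted p = 0.000128) and −2.07 (SE 0.41, adjusted p = 0.000626). The single Nkx6-1 peak (35.7 kb upstream) held 51.8 and 90.6 in Liv_OFF, 14.7, 54.3 and 19.8 in Lung_OFF and 9.39, 15.2 and 14.8 in Panc_OFF. It was higher in the liver than in the pancreas without overlap (2.33, SE 0.49, adjusted p = 0.00099), but overlapped Lung_OFF (1.41, SE 0.49, adjusted p = 0.0278), a call lost without Liv_OFF replicate 2 (1.01) or Lung_OFF replicate 1 (1.04). Prox1 peak 1 (90.4 kb downstream) held 4.94 and 13.9 in Liv_OFF and 122, 15.2 and 47.4 in Lung_OFF (−2.29, SE 0.67, adjusted p = 0.0105, lost without Liv_OFF replicate 1).

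The AP-1 letters TGACTCA occurred in the central 200 bp of 30 of 118 member peaks (25.4%, beside 22.3% of all peaks). Among members lower in Liv_OFF than in Lung_OFF, 17 of 30 held them (56.7%, beside 36.4% of all lower peaks). Among those higher, 5 of 34 did (14.7%, beside 11.8%), and among those not called, 8 of 54 (14.8%, beside 19.7%). Of the 17, 7 were Sox9 peaks. KLF letters CCNCCC occurred in 17 of 34 higher members (50%, beside 40% of all higher peaks) and 15 of 30 lower ones (50%, beside 31.9%). Among members not called they occurred in 21 of 54 (38.9%, beside 39.4%). The HNF1 letters were found only in Nr5a2 peaks 2 and 12 and NR5A letters in Nr5a2 peak 1 and Gata4 peak 14. No test was made of these shares.

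Liver metastases also differed from pancreas tumours with Smad4 off, most one-sidedly at Gata4. Gata4 had 13 peaks higher and 1 lower, Nr5a2 7 and 2, Pdx1 and Bhlha15 4 and 1 each, Sox9 4 and 9 and Gata6 6 and 9. In all, 66 of 118 peaks were called (55.9%), 40 higher and 26 lower, beside 58.5% of all peaks (26.2% higher and 32.3% lower). The median log2 difference was 0.19 over members and −0.05 over all peaks, and at 81 members the samples did not overlap, beside 77.1% of all peaks. Quantile normalisation left 42 higher and 14 lower, taking the higher share from 60.6% to 75%. Over all peaks it took the higher share of calls from 44.8% to 49%. Of 10 loci, Gata4, Bhlha15 and Nkx6-1 were higher and none was lower, beside 36.8% of all loci (23.8% higher and 13% lower), with 1 lower locus added by TMM factors and 2 higher and 1 lower left under quantile normalisation. The Ptf1a call in this comparison (peak 1, 0.58, SE 0.27, adjusted p = 0.0706) sat at the fold limit and was lost with a pseudocount of 10, with TMM factors and without Panc_OFF replicate 1 or 2 or Liv_OFF replicate 2.

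Lung metastases and pancreas tumours with Smad4 off were closer to each other. Only 11 of 118 peaks were called (9.32%, beside 17.3% of all peaks), 10 higher in the lungs and 1 lower, where all peaks had 6.59% higher and 10.7% lower. Nr5a2 had 3 of the higher peaks, Sox9, Gata4 and Gata6 2 each and Ptf1a 1. Sox9 peak 12 (29.4 kb downstream) held 208, 81.5 and 215 in Lung_OFF and 59.8, 36.6 and 34.3 in Panc_OFF, without overlap (1.84, SE 0.44, adjusted p = 0.0121). The count fell to 7, 5 and 2 without Panc_OFF replicates 1, 2 and 3. Among the weaker calls were Nr5a2 peak 4 (0.93, adjusted p = 0.0494), Gata6 peak 8 (1.04, adjusted p = 0.0784), Gata4 peak 14 (0.88, adjusted p = 0.0826) and Ptf1a peak 3 (2.58, adjusted p = 0.0568), and each was lost without Panc_OFF replicate 3 and without either Lung_OFF replicate 1 or 2. Gata4 peak 14 was at 0.46 without Lung_OFF replicate 2. The Nr5a2 sum was the only locus called, beside 5.76% of all loci (2.53% higher and 3.23% lower). It held 1748, 1295 and 1504 in Lung_OFF and 1033, 1072 and 761 in Panc_OFF (0.67, SE 0.21, adjusted p = 0.0761), and the call was lost without any 1 Panc_OFF sample or without Lung_OFF replicate 1 or 3.

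**Figure D4:**
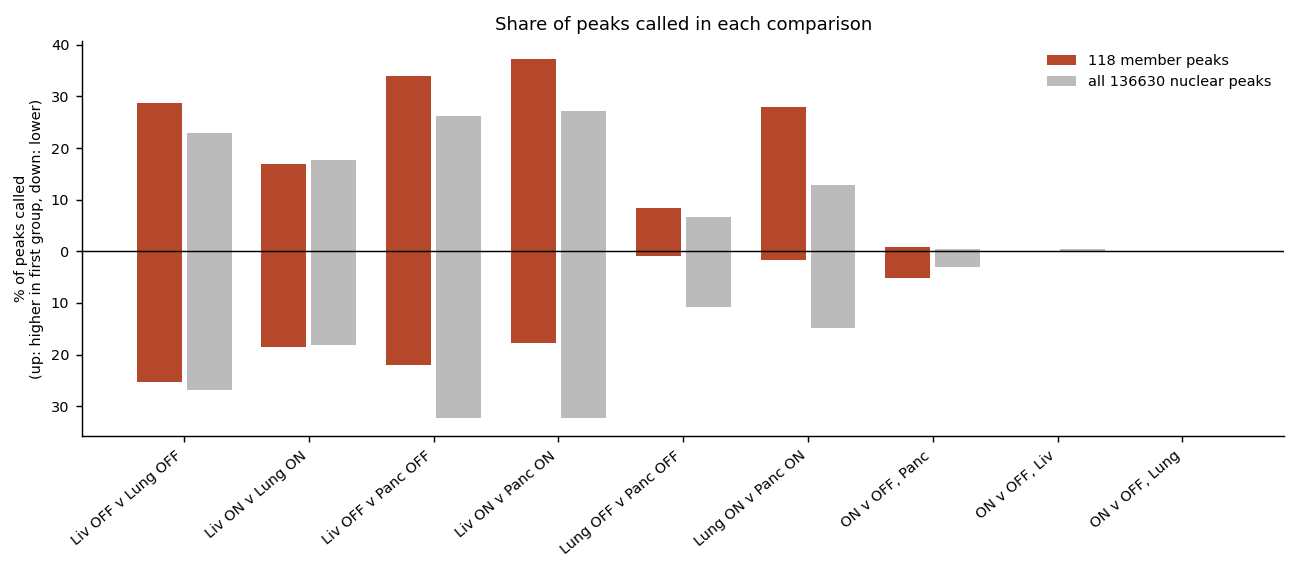
Percentage of peaks called higher and lower in each comparison, for the 118 member peaks and for all 136630 nuclear peaks. In Liv_ON against Panc_ON 37.3% of members but 27.1% of all peaks were higher, with 17.8% and 32.2% lower, and in Lung_ON against Panc_ON 28.0% of members but 12.8% of all peaks were higher, with 1.69% and 14.9% lower.

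With Smad4 restored, the liver and pancreas again differed at Gata4 (14 peaks higher, 1 lower), Pdx1 (6 higher), Nr5a2 (5 and 2), Sox9 (5 and 7) and Gata6 (8 and 7). Bhlha15 had 4 higher and 1 lower. In all, 65 peaks were called, 44 higher and 21 lower, beside 59.4% of all peaks (27.1% higher and 32.2% lower). Of the 9 start-site peaks 4 were higher (44.4%, beside 27.4% of all start-site peaks), those of Bhlha15, Nr5a2 and Rbpjl and the smaller one of Gata4, and their median absolute log2 difference was 0.71 beside 0.37. The locus sums of Gata4 (0.80), Bhlha15 (0.94) and Nkx6-1 (1.43) were higher and that of Rbpjl lower (−0.79), 4 of 10 beside 35.9% of all loci (22% higher and 13.9% lower). Quantile normalisation ended the Gata4 call (0.54) and added a lower Sox9 sum (−0.68), and the Nkx6-1 call was lost without Liv_ON replicate 2. Liv_ON against Lung_ON gave 20 higher and 22 lower, beside 35.8% of all peaks (17.6% higher and 18.2% lower), and 12 calls in all without Liv_ON replicate 2. No locus was called in Liv_ON against Lung_ON in limma, beside 20.8% of all loci. An unadjusted p under 0.05 was found for 2 of the 10, beside 47.7% of all loci. Bhlha15 (0.54) was called without Lung_ON replicate 3 (0.59) and with the replicate block (0.61).

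Lung_ON against Panc_ON was the most one-sided comparison. Of the 118 peaks, 33 were higher in the lungs and 2 lower, beside 27.8% of all peaks called, of which 12.8% of all peaks were higher and 14.9% lower. Gata4 had 14 higher peaks, Pdx1 6, Gata6 5, Nr5a2 4, and Sox9 and Bhlha15 2 each, and the lower peaks were at Rbpjl and Sox9. The median log2 difference was 0.37 over the members and 0.00 over all peaks. Gata4 peak 3 held 64, 78.6 and 96.1 in Lung_ON and 26.7, 32.2 and 41.4 in Panc_ON (1.23, SE 0.27, adjusted p = 0.00438), and Pdx1 peak 1 held 294, 395 and 336 against 173, 167 and 146 (1.07, SE 0.27, adjusted p = 0.0106). The groups did not overlap at either. No locus sum was called, beside 14% of all loci, with 5 of 10 at an unadjusted p under 0.05, beside 34.7% of all loci. Rbpjl (−0.58) was called under quantile normalisation (−0.62) and without Panc_ON replicate 2 (−0.64) or Lung_ON replicate 1 (−0.70), and Gata4 (0.53) without Panc_ON replicate 1 or Lung_ON replicate 1 (0.60 in both). Over all peaks the higher share of calls moved from 46.3% to 56.8% under quantile normalisation. In the same comparison 26 of 50 peaks near epithelial genes were higher and 0 lower, near ductal genes 32 of 111 higher and 14 lower, and near fibroblast genes 2 of 45 higher and 24 lower. Epcam, Krt8, Krt18 and Krt19 are in both the epithelial and the ductal list, so their peaks are counted in both. Of the remaining lists, acinar enzyme genes had 9 of 47 peaks higher and 4 lower, endocrine factors 9 of 66 and 10, and hepatocyte genes 8 of 56 and 5. Endothelial genes had 10 of 44 and 3, lung epithelial genes 2 of 29 and 4, and leukocyte genes 2 of 9 and 4. The epithelial start-site sum was 21554 to 23951 in Lung_ON and 11359 to 15511 in Panc_ON, and the part of these lists was not tested.

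Restoration of Smad4, the question of the study, was called at 7 of 118 peaks in the pancreas (5.93%, beside 3.42% of all peaks): 3 at Gata4, 2 at Pdx1 and 1 at Bhlha15 fell, and 1 at Gata6 rose. Of all peaks 3.06% fell and 0.364% rose. None was a start-site peak. With them, 5 of 50 epithelial peaks fell and 0 rose, 10 of 111 ductal peaks fell and 1 rose, and the epithelial start-site sum was 16377 to 19060 in Panc_OFF and 11359 to 15511 in Panc_ON, without overlap. The epithelial genes other than Cdh1 are also in the ductal list, so the epithelial and ductal counts are not independent. Near hepatocyte genes 4 of 56 peaks fell and near acinar enzyme genes 2 of 47. In the endocrine (66 peaks), endothelial (44) and lung epithelial (29) lists 1 peak each fell. None of these lists had a peak that rose, and of 45 fibroblast and 9 leukocyte peaks 0 fell and 0 rose. The part of these lists was not tested. Gata4 peak 26 (80.8 kb upstream, chr14:63325271-63326934) held 471, 482 and 446 in Panc_OFF and 180, 154 and 132 in Panc_ON. It fell by 1.59 (SE 0.23, adjusted p = 0.00963) without overlap, and no alternative ended the call. In the liver it held 1016 and 843 without and 643 and 624 with restoration, and in the lungs 245, 597 and 406 and then 353, 381 and 413, neither of them called.

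Pdx1 peak 1 held 325, 350 and 324 in Panc_OFF and 173, 167 and 146 in Panc_ON and fell by 1.04 (SE 0.27, adjusted p = 0.0664), whereas in the liver it held 1010 and 1541 with Smad4 restored, a difference of 0.05, and in the lungs it was 0.40 higher. Pdx1 peak 8 (13.4 kb downstream), like this effect at peak 1 chosen after its values were seen, held 42.7, 75.9 and 63 and then 22.2, 27.2 and 23 (−1.26, SE 0.34, adjusted p = 0.0702). Both Pdx1 peaks separated the pancreas groups without overlap. Bhlha15 peak 6 held 121, 177 and 164 in Panc_OFF and 64, 68.1 and 57.5 in Panc_ON (−1.26, SE 0.27, adjusted p = 0.0302). Gata6 peak 7 held 156, 135 and 127 and then 268, 324 and 327 and rose by 1.13 (SE 0.27, adjusted p = 0.0443).

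The other Gata4 calls were peak 25 (41.8, 45.6 and 36.1, then 7.11, 16.1 and 6.13, adjusted p = 0.0418) and peak 1 (102, 137 and 164, then 67.6, 45.8 and 49.8, adjusted p = 0.0599). Each of the 6 other calls was lost without Panc_OFF replicate 2 or 3. The count was 2, 1 and 1 without Panc_OFF replicates 1, 2 and 3, 4, 3 and 5 without Panc_ON replicates 1, 2 and 3, and 13 and 11 without Lung_OFF replicates 1 and 2. Of all peaks, 25.5% did not overlap between Panc_OFF and Panc_ON, and 40 of 118 members did not. No locus sum was called for restoration in the pancreas, liver or lungs in limma, beside 2.15%, 0.0561% and 0.0112% of all loci. At an unadjusted p under 0.05 there were 3, 1 and 2 of 10, beside 17.4%, 11.6% and 6.43% of all loci. Bhlha15 in the pancreas (−0.45) was called without Panc_ON replicate 3 (−0.59, adjusted p = 0.057) and Rbpjl in the lungs (−0.68) without Lung_OFF replicate 2 (−0.94, adjusted p = 0.0538).

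In the liver and the lungs, no member peak was called for restoration in limma, beside 0.55% (0.462% higher, 0.0886% lower) and 0.00366% (0.00146% higher, 0.0022% lower) of all peaks. At an unadjusted p under 0.05 there were 15 and 6 of 118, beside 12.1% and 7.11% of all peaks. The quasi-likelihood test of edgeR on recovered reads also called 0 in both. Averaged over the organs, 11 peaks were called, beside 6.62% of all peaks (3.61% higher and 3% lower). Sox9 peaks 1, 9 and 10 and Gata6 peak 7 were higher with Smad4 restored. Sox9 peak 20, Gata4 peaks 1, 9, 25 and 26, Gata6 peak 9 and Bhlha15 peak 6 were lower.

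**Figure D5:**
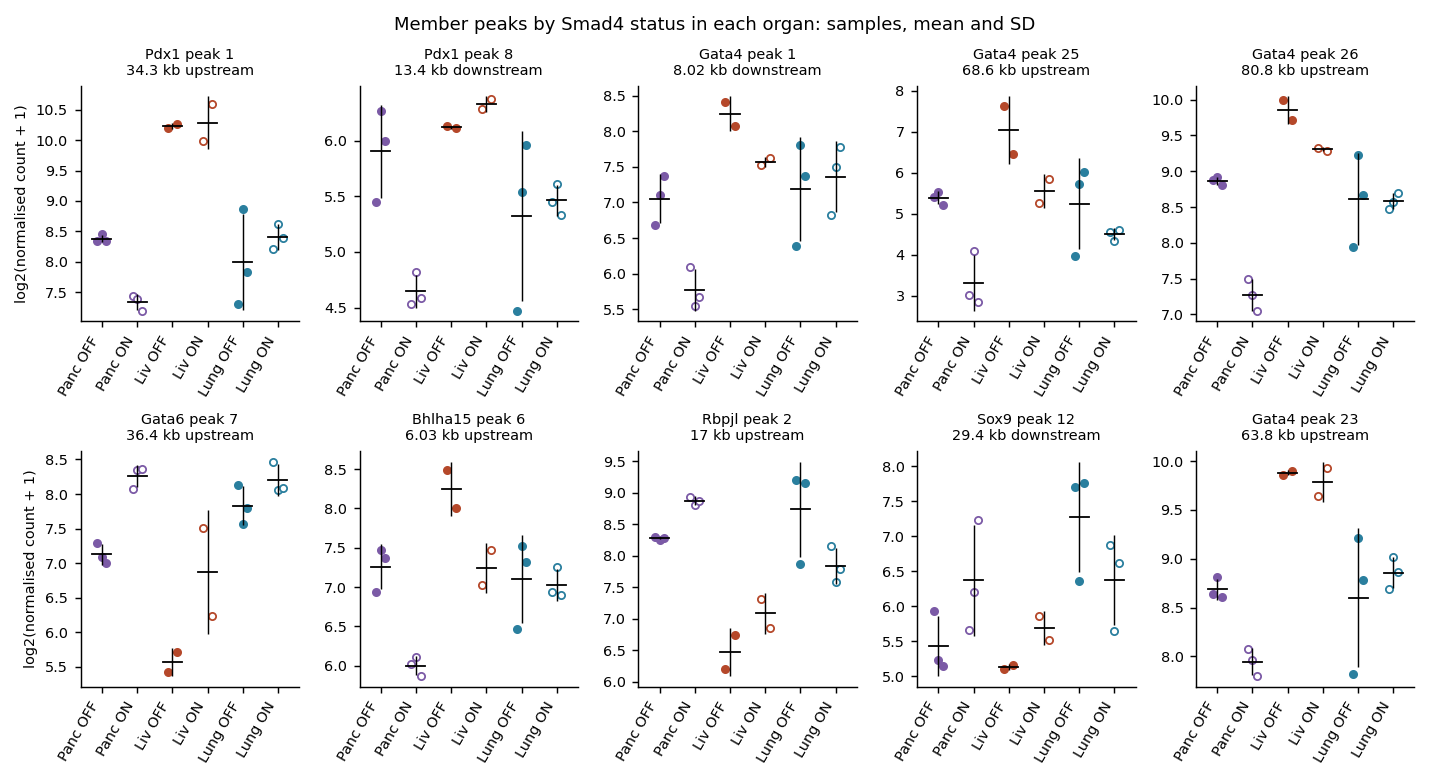
Log2(normalised count + 1) in every sample, Smad4 OFF beside ON within each organ, for 10 member peaks. All but Rbpjl peak 2, Sox9 peak 12 and Gata4 peak 23 were called for restoration in the pancreas. Those peaks passed for lungs minus pancreas with the block in the lungs only, a choice made after seeing the data. They were not called in limma without a block (adjusted p from 0.248 to 0.32). Points are samples, lines are group means and bars are SD. In the pancreas the ON samples of Gata4 peak 26 (132 to 180) lie below the OFF samples (446 to 482), while in the lungs the states overlap.

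Whether restoration acted differently between organs was tested by the difference of the effects. In limma 0 of 118 peaks passed for any pair of organs, beside 0% of all peaks, and edgeR also called 0. At an unadjusted p under 0.05 there were 9 of 118 for the liver and lungs, beside 5.25% of all peaks. There were 5 for the liver and pancreas (beside 3.95%) and 27 for the lungs and pancreas (beside 11%). When the replicate number was used as a block in the lungs only, whose samples deviated together by number, a choice made after seeing the data, 8 peaks passed for the lungs against the pancreas, among them Pdx1 peak 1 (1.44, SE 0.28, adjusted p = 0.0421), Gata4 peak 26 (1.56, SE 0.26, adjusted p = 0.0299) and Rbpjl peak 2 (−1.49, SE 0.29, adjusted p = 0.0462). The block in every organ called 1 peak and with GC correction 0. The share of all peaks that passed with these blocks is not given here, so these counts cannot be set against a background.

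Counts of called peaks near other gene lists are given here for Liv_OFF against Lung_OFF. Among all peaks 49.7% were called in this comparison (22.9% higher and 26.8% lower). Of the peaks near acinar enzyme genes, 14 of 47 were higher and 13 lower in Liv_OFF than in Lung_OFF, of those near ductal genes 57 of 111 higher and 23 lower, and of those near endocrine factors 13 of 66 higher and 16 lower. The 3 acinar start-site peaks (Cela1, Pnliprp2 and Sycn) summed to 1057 to 1095 in Liv_OFF, 170 to 434 in Lung_OFF and 114 to 172 in Panc_OFF. The 6 endocrine ones summed to 1712 to 2226, 1738 to 2161 and 1876 to 2367. Of 15 acinar loci 5 were higher and 1 lower, and of 11 endocrine loci 3 and 2, beside 20.4% and 11.8% of all loci. For epithelial genes, which apart from Cdh1 are also in the ductal list, the sum over start-site peaks was 41467 to 42481 in Liv_OFF, 18190 to 27348 in Lung_OFF and 16377 to 19060 in Panc_OFF. Of their peaks, 40 of 50 were higher and 1 lower. For fibroblast genes it was 1511 to 1567, 1736 to 2506 and 2841 to 3319, with 2 of 45 higher and 14 lower. Of 8 hepatocyte genes only Ttr and Apob had a start-site peak (1009 to 1172, 383 to 543 and 320 to 406), with none at Alb, and 21 of 56 peaks were higher and 13 lower. Lung epithelial genes had no start-site peak, with 7 of 29 peaks higher and 6 lower. For leukocytes, only Cd68 had a start-site peak (454 to 776 in Liv_OFF, 256 to 401 in Lung_OFF and 202 to 269 in Panc_OFF), with 1 of 9 peaks higher and 1 lower. For endothelium the sum was 181 to 227, 246 to 987 and 237 to 324, with 10 of 44 higher and 17 lower. The part of these lists in the member results was not tested.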

How the data were processed

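Bulk ATAC-seq of sorted tumour cells was analysed in 16 samples. One allele of the model is not reported here. Sample titles gave the groups and replicate numbers. Columns of the table name doxycycline status, and doxycycline on was read as Smad4 off. The lung column names give day 15, whereas the study gives 14 days of withdrawal. According to the study's methods, trimGalore and cutadapt trimmed the reads, Bowtie2 aligned them (mm10) and MACS2 called the peaks, of which those on the ENCODE blacklist were dropped. The authors then merged neighbouring peaks of all samples into one atlas, counted reads in it with featureCounts and scaled each sample by its DESeq2 size factor. The deposited values are this signal, the normalised count per peak. A transposase shift, duplicate removal and the filter named in the table are not given in the sources used here. Duplicates would make counting error look too small.

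Each value was a whole number of reads after division by the worth of 1 read (100% within 0.05 of a whole number). The mitochondrial row (1.43% to 3.56% of reads) was left out. Peaks were assigned to the nearest protein-coding start site (GENCODE basic annotation) within 100 kb. Sequences were matched as exact letters in the same build.

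limma 3.58.1 (trend and robust) in R 4.3.3 fitted a mean for each of 6 groups on log2(normalised count + 1), for all 136630 nuclear peaks and for the sums over 17815 gene loci, with Benjamini-Hochberg adjustment over each whole table and the fold and p thresholds of the study. edgeR 4.0.16 on recovered reads called 67887 peaks between Liv_OFF and Lung_OFF and 4408 for restoration in the pancreas. Figures used matplotlib 3.10.9.

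Named peaks were the peak nearest each start site, the called peak of smallest p without overlap in each Smad4 OFF comparison, and up to 5 peaks called for restoration per organ. Other peaks named are said to be chosen after their values were seen. The members and lists were chosen with earlier results of these data known. Alternatives were another pseudocount, count minimum, scaling, GC correction, thresholds, distance limit, edgeR, the groups compared alone, the replicate block and leaving out each sample. The block in the lungs only was chosen after seeing the data. Deviations of samples of equal number correlated at 0.491, 0.124 and 0.214 in the lungs, which met the 0.1 limit for pairing, at −0.33, 0.0271 and −0.33 in the pancreas and 0.0834 in the liver, which did not. The pairing thus rests on the data and not on the labels.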

Additional observations from a re-analysis of the deposited data

Results flagged for a closer look

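For 8 member peaks the effect of restoring Smad4 differed between the lungs and the pancreas when the replicate number was a block in the lungs only, a choice made after seeing the data. Blocking all organs left 1 called peak, and 0 when the GC correction was added. The share of all peaks that passed with either block is not given here, so the 8 cannot be set against a background. Without the block their adjusted p-values in limma ranged from 0.23 to 0.329. Pdx1 peak 1 differed by 1.44 (−1.04 in the pancreas and 0.40 in the lungs), Gata4 peak 26 by 1.56 (−1.59 and −0.03), Gata4 peak 1 by 1.46 (−1.28 and 0.18) and Gata4 peak 23 by 1.00 (−0.74 and 0.26), all log2 differences. Gata6 peak 12 differed by 0.96 (−0.51 and 0.45) and Gata6 peak 21 by 0.77 (−0.45 and 0.32). Sox9 peak 12 differed by −1.84 (0.94 and −0.90) and Rbpjl peak 2 by −1.49 (0.59 and −0.90). With the GC correction added, 6 of the 8 still passed, without Sox9 peak 12 and Gata6 peak 12.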

How the results depend on the processing

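Over 60 values of named peaks and 1609 alternative values, 1503 kept their direction and side of the threshold and 98 lost their call, and 383 of 430 alternative counts stayed within 1.5 times. The reversed values were all of the uncalled Prox1 peak 2: −0.77 with replicate block and GC correction and −0.78 to 0.91 when single samples were left out (liver against lungs, OFF), and −0.97 to 0.71 likewise (liver against pancreas, OFF), the ends being those without a liver sample. Within 50 kb of the start site, fewer peaks were counted by construction: 39 for Liv_OFF against Lung_OFF, 7 for Lung_OFF against Panc_OFF, 26 for Liv_ON against Lung_ON and 7 for the average over organs. Thresholds of 1 and 0.05 gave 2 peaks for Lung_OFF against Panc_OFF, 20 for Lung_ON against Panc_ON, 4 for restoration in the pancreas and 1 for the average, and 2, 1 and 0 loci for Liv_OFF against Lung_OFF, Liv_OFF against Panc_OFF and Lung_OFF against Panc_OFF. Quantile normalisation gave 14 peaks for restoration in the pancreas (1 higher, 13 lower), TMM factors 1 in the liver, a pseudocount of 10 gave 5 for the average, and fitting only the groups compared gave 7 for Lung_OFF against Panc_OFF, and the cause was not tested.

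With the replicate block in every organ, the lung minus pancreas difference of restoration had 1 called peak, with the lung block 8 and with the lung block and GC correction 6, against 0 without. The shares of all peaks in the blocked fits are not given here. The block gave 61, 65 and 9 for Liv_OFF against Lung_OFF, Liv_OFF against Panc_OFF and restoration in the pancreas.

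Leaving out 1 sample at a time gave 44 to 66 peaks for Liv_OFF against Lung_OFF, 54 to 68 for Liv_OFF against Panc_OFF, 2 to 14 for Lung_OFF against Panc_OFF, 12 to 44 for Liv_ON against Lung_ON, 51 to 67 for Liv_ON against Panc_ON and 25 to 37 for Lung_ON against Panc_ON. For restoration it gave 1 to 13 in the pancreas, 0 to 3 in the liver, 0 in the lungs and 4 (without Liv_OFF replicate 1) to 19 (without Lung_OFF replicate 1) for the average, and 0 to 9 for lungs minus pancreas (9 without Lung_OFF replicate 2). Loci ranged from 3 to 5, 3 to 4 and 0 to 2. A liver group left with 1 sample was assumed to vary like the other groups. The GC correction was not run for loci. Liver groups of 2 samples and peaks of few reads limit the precision.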

Other observations

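The protein-coding loci on other chromosomes whose summed accessibility followed a member most closely were found by Pearson r over the 16 samples, as a description of samples that share organ and depth. They were Cbr4 (0.984) and Mfsd4b1 (0.983) for Gata4, Lrfn3 (0.983) and Tmem136 (0.968) for Bhlha15, Pdik1l (0.972) and Pgd (0.971) for Pdx1, and Sept11 (0.937) and Sh3kbp1 (0.928) for Sox9. They were Fam49a (0.911) and Gm17509 (0.906) for Rbpjl, Ubl7 (0.912) and Slc25a47 (0.907) for Ptf1a, Gbp4 (0.891) and Slfn2 (0.886) for Nr5a2 and Hint1 (0.871) and Zfp90 (0.866) for Gata6. Nkx6-1 and Prox1, each with 3 peaks or fewer, were followed by Krtap24-1 (0.947) and Siglecf (0.941) and by Vmn1r61 (0.851) and Olfm1 (0.847).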
